A study of Mus musculus with 23 samples.

Results

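This account follows 10 genes that set or read the chromatin state of muscle precursor cells: Ezh2, Ezh1, Suz12, Eed and Jarid2 of Polycomb repressive complex 2 (PRC2), the chromatin remodeller subunit Smarcd3, the histone demethylase Kdm1a, and the class IIa histone deacetylases Hdac5, Hdac7 and Hdac9. They were chosen by name, for their known roles in muscle chromatin, from the 32793 genes in the deposited tables. Earlier results of these data were known when they were chosen. All 10 passed the filter on low counts, as did 14187 genes in all.

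The cells were C2C12, a mouse myoblast line that stops dividing and fuses into myotubes when serum is withdrawn. Poly(A) RNA was sequenced from control cells (WT) and from cells labelled Runx1KO. Day 0 cells were kept in growth medium, which held 20% fetal bovine serum. The others had spent 1, 3 or 6 days in a differentiation medium whose 2% serum came from horse. There were 3 libraries in each of 7 groups and 2 in WT day 0. The sample titles give the last time as day 6, whereas the series text gives 5 days; the titles are followed here. The labels describe neither the knockout allele nor the number of clones, and they do not say whether replicates were separate cultures, so every p-value below measures the spread between these libraries only.

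PRC2 places the repressive mark H3K27me3. Its catalytic subunit is either Ezh2, abundant in dividing precursors, or Ezh1, which replaces it in many differentiated cells, while Suz12 is the scaffold, Eed binds the mark itself, and Jarid2 is an accessory subunit that helps bring the complex to its targets. Smarcd3 encodes BAF60c, a BAF (SWI/SNF) subunit known to partner MyoD on muscle genes. Kdm1a (LSD1) removes methyl groups from H3K4, and class IIa deacetylases bind MEF2 factors and restrain muscle genes until they are exported from the nucleus.

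The start regions of the 2 catalytic subunits are shown because their mRNAs moved in opposite directions below. Each is the RefSeq window (GRCm38.p6, 250 bases before to 50 after the transcript start), written 5′ to 3′ on the gene's strand, with capitals marking matches on either strand to a Runx-type motif (TGNGGT) or an E2F-type motif (TTTNNCGC).
Ezh2, chr6:47594981-47595280, minus strand: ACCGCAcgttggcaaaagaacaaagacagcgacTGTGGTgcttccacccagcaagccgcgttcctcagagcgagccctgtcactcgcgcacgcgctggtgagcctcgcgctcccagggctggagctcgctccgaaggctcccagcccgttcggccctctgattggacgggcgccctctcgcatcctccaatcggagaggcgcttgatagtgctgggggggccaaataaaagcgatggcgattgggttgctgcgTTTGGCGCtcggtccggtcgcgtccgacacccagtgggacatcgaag
Ezh1, chr11:101226414-101226713, minus strand: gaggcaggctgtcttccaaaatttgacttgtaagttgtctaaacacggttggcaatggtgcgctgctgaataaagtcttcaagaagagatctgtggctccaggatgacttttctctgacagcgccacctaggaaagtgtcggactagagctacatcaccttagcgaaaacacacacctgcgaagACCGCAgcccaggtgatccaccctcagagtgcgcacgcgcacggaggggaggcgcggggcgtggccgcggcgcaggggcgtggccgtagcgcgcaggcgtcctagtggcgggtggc

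The Ezh2 window held 2 Runx-type matches, beginning 250 and 217 bases before the start, and 1 E2F-type match beginning at base 4 of the transcript. Ezh1 held 1 Runx-type match, beginning 66 bases before the start, and 2 matches to the E-box CANNTG, beginning 77 and 57 bases before it. Across all 32851 mouse windows of this length, 45.8% held the Runx-type motif, 5.17% the E2F-type motif and 72.3% an E-box. Among the 10 members, 6 had a Runx-type match in at least 1 window (Ezh1, Ezh2, Hdac5, Hdac9, Jarid2 and Kdm1a), 2 had an E2F-type match (Ezh2 and Suz12) and 7 had an E-box. In Hdac5, Hdac9 and Kdm1a every Runx-type match read TGGGGT or its reverse complement ACCCCA. Hdac7, Hdac9 and Jarid2 had more than 1 window each, whereas the shares above are per window. A match describes the letters only; no binding was measured.

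The members lie on 8 chromosomes (GRCm38, GENCODE M21). Ezh1 (chromosome 11, 101191115 to 101226463) and Hdac5 (chromosome 11, 102194432 to 102230166) are separated by 0.968 Mb on the same strand, and Suz12 (79993106 to 80034123) is on that chromosome too. Ezh2 is at 47530139 to 47595341 on chromosome 6, and Hdac9, the longest locus of the members, runs from 34047580 to 34917095 on chromosome 12. Eed is at 89954654 to 89980983 on chromosome 7, Jarid2 at 44729474 to 44921643 on chromosome 13, Kdm1a at 136550540 to 136602723 on chromosome 4 and Hdac7 at 97792664 to 97844502 on chromosome 15. Smarcd3 (chromosome 5, 24590818 to 24624411) shares 2466 of its 5120 exonic bases with Chpf2 on the opposite strand. Whether counting used strand is not given in the sources used here, so reads of those bases could belong to either gene.

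Libraries held 22197606 to 23684077 counts. Runx1 mRNA was higher in the libraries labelled Runx1KO: its CPM (a gene's count relative to its library's TMM-scaled total) were 118 to 122 in the 3 KO day 0 libraries against 84.0 and 83.9 in WT (log2 difference 0.51), and 297 to 320 against 146 to 165 at day 6 (1.02). The allele is not described, so these counts cannot check the knockout. The groups are therefore named below as the KO-labelled libraries. The KO day 1 replicate 2 library stood apart, with a chi-square per degree of freedom of 58.8 and 58.4 against its partners and 3.07 to 27.3 in every other pair of the same group, so day 1 values are also given without it where it moves them. Myoblast markers were present in every library (Myod1 at 137 to 473 TPM, Des at 531 to 1589 TPM), and the 7 listed summed to more in the KO-labelled libraries than in WT, without overlap, on day 0 (1421 to 1472 against 1065 to 1079 TPM), day 3 (1774 to 1923 against 1362 to 1455) and day 6 (1889 to 2014 against 1206 to 1442). Called higher on these days were 3, 5 and 3 of the listed markers, beside 7.36%, 24% and 22% of all genes. Called lower were 1, 0 and 2, beside 10.1%, 19.2% and 20.8%. Of the 8 adipocyte genes listed, 4 (Adipoq, Cfd, Cidec and Lep) had no count in any library. The list summed to 21.2 to 33.3 TPM in WT and 11.4 to 18.9 TPM in the KO-labelled libraries, mostly from Cebpa and Pparg, which were both called lower in the latter on every day (-1.79 to -0.72 and -1.01 to -0.72). The 7 immune genes summed to 1.54 to 3.71 TPM on days 0 to 3, and to 5.35 to 9.35 in WT day 6 and 15.8 to 17.9 in KO day 6, where Cd68 was higher by 1.68. Of the 3 immune genes tested, 1 was called higher and 1 lower on day 6, with values from -2.04 to 1.68. Among all genes, 22% were called higher and 20.8% lower. Ptprc and Adgre1, which define blood cells and macrophages, had at most 1 and 0 counts in a library, and the 6 endothelial genes summed to at most 1.79 TPM. The part of these genes in the results was not tested. The summed TPM (the authors' unit, which also allows for gene length) of the 30 listed myotube genes were 155 to 157 in WT day 0 and 4305 to 5249 in WT day 6, and 170 to 179 and 24170 to 28680 in the KO-labelled libraries.

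Ezh2, the catalytic subunit of dividing cells, fell when serum was withdrawn in both genotypes, and on days 1 and 3 it was higher in the KO-labelled libraries. In WT it was at 45.0 and 46.0 TPM on day 0 and 20.6, 20.7 and 21.3 on day 1. It was then at 24.03, 24.4 and 23 on day 3 and 22.2, 18.7 and 21.9 on day 6. All of these later WT libraries lay below those of day 0. The KO-labelled libraries had 47.8, 48.9 and 48.1 TPM on day 0 and 31.2, 48.4 and 31.6 on day 1. Later they had 34.3, 38.2 and 37.9 on day 3 and 23.6, 19.0 and 20.3 on day 6. Every KO library was above every WT library on days 1 and 3, and the groups overlapped on day 6. In WT, Ezh2 fell within a day by 1.26 on the log2 scale (SE 0.11, adjusted p = 2.65e-09). This test and those below without another name are edgeR's quasi-likelihood test, adjusted by Benjamini and Hochberg's method over all tested genes and called under 0.05. The fall in the KO-labelled libraries was smaller at first (-0.54, adjusted p = 0.000106, on day 1, or -0.72 without replicate 2; -0.47, adjusted p = 0.000396, on day 3), while the WT day 1, 3 and 6 libraries stayed between 18.7 and 24.4 TPM.

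The KO minus WT log2 difference in Ezh2 was 0.14 (adjusted p = 0.463) on day 0, 0.86 (SE 0.11, adjusted p = 7.39e-07) on day 1, 0.78 (SE 0.10, adjusted p = 1.97e-06) on day 3 and 0.13 (adjusted p = 0.357; 0.00 on the log2(TPM + 1) scale) on day 6. Without KO day 1 replicate 2, which at 48.4 TPM lay within the KO day 0 range, the day 1 difference was 0.69 (adjusted p = 1.57e-07). The change from day 0 itself differed between genotypes, by 0.72 at day 1 (adjusted p = 0.00796) and 0.64 at day 3 (adjusted p = 0.0074). Both of those calls were lost without WT day 0 replicate 2 (adjusted p = 0.0679 and 0.0565), which leaves 1 library in that group. The day 1 call was also lost when only the 4 groups compared were fitted (0.67, adjusted p = 0.103), and the day 3 call on log2(TPM + 1) (0.52, adjusted p = 0.0639). Between days 0 and 6 Ezh2 fell by 1.30 on the log2 scale in WT and fell by 1.32 in the KO-labelled libraries.

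Summed cell cycle transcripts differed between groups much as Ezh2 did. The KO day 1 replicate 2 library went apart, with Ezh2 at 48.4 TPM, within the KO day 0 range, but a cell cycle sum of 2325 TPM. The 30 listed genes summed to 3873 to 3882 TPM in WT day 0 and 3750 to 4038 in KO day 0, to 1308 to 1373 and 2078 to 2325 on day 1, to 1461 to 1753 and 2396 to 2768 on day 3, and to 1008 to 1253 and 1063 to 1195 on day 6. On day 1, 29 of the 30 were called higher in the KO-labelled libraries, with or without KO day 1 replicate 2, and on day 3 again 29, where 22.9% and 24% of all genes were. At day 6, when Ezh2 was not called, 14 were called higher and 2 lower (22% and 20.8% of all genes). Whether cell cycle state had a part in the Ezh2 difference was not tested, and in bulk RNA fewer cells of a type and less RNA per cell cannot be told apart.

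**Figure D1:**
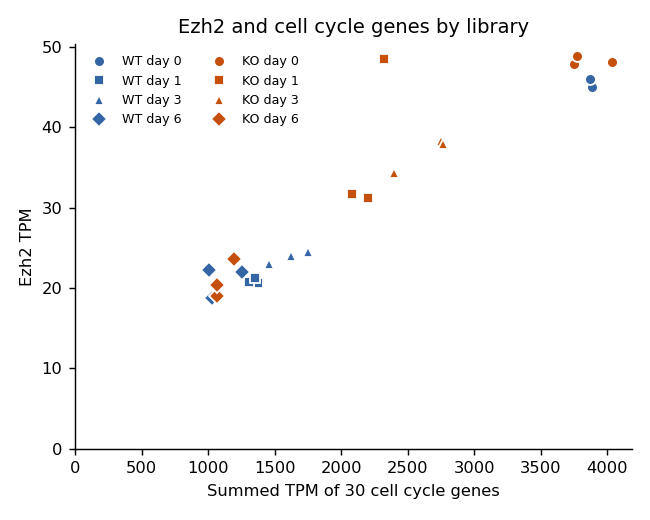
Ezh2 level (TPM, vertical) against the summed level of 30 cell cycle genes (TPM, horizontal) in each of the 23 libraries, 1 point per library, by genotype and day. WT day 0 and KO day 0 libraries lie at the high end of both axes, and KO day 1 and day 3 libraries lie above the WT libraries of the same days on both.

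Ezh1, the paralog that takes over in many non-dividing cells, moved the other way: it rose from day 0 to each later day in both genotypes and was lower in the KO-labelled libraries. In WT it was at 11.8 and 10.5 TPM on day 0 and 32.2, 35.2 and 29.8 on day 1. Later levels were 34.8, 36.7 and 38.2 on day 3 and 49.0, 42.6 and 51.6 on day 6. Every later WT library lay above both from day 0. Ezh1 in the KO-labelled libraries was at 10.1, 8.27 and 6.79 TPM on day 0 and 15.9, 19.4 and 18.0 on day 1. It was then at 19.5, 20.9 and 17.1 on day 3 and 30.2, 26.6 and 24.9 on day 6. The groups did not overlap on any day, and of the KO day 6 libraries only replicate 1, at 30.2 TPM, reached the WT day 1 range. From day 0 to day 6 Ezh1 rose by 1.94 (SE 0.12, adjusted p = 1.91e-12) in WT and by 1.59 (SE 0.10, adjusted p = 2.62e-12) in the KO-labelled libraries.

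The KO minus WT log2 difference in Ezh1 was -0.83 (SE 0.10, adjusted p = 5.68e-07) on day 1, -0.79 (SE 0.10, adjusted p = 7.21e-07) on day 3 and -0.69 (SE 0.10, adjusted p = 3.7e-06) on day 6, and without KO day 1 replicate 2 the day 1 value was -0.84. On day 0 it was -0.34 (adjusted p = 0.0432); that call was lost in 8 of the 14 alternatives, including leaving out any 1 of KO day 0 replicates 2 or 3 or WT day 0 replicates 1 or 2, with adjusted p up to 0.283. The differences between the genotypes in the change of Ezh1 from day 0 (-0.49, -0.45 and -0.35 at days 1, 3 and 6) did not pass the threshold, with adjusted p of 0.0799, 0.0634 and 0.152. The day 3 value passed with DESeq2 (-0.50, adjusted p = 0.017) and in 5 other alternatives, the day 1 value in 3 (DESeq2 -0.52, adjusted p = 0.0221), and all 3 values without KO day 0 replicate 3 (-0.62, -0.58 and -0.48, adjusted p = 0.0115, 0.00633 and 0.02). At day 6, 28 of the 30 listed myotube genes were called higher in the KO-labelled libraries, as were 22% of all genes; their part in the Ezh1 difference was not tested.

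As a share of the TPM of both catalytic genes, Ezh1 made up 19.6% ± 1.48 (SD, n = 2) in WT day 0, 60.7% ± 2.31 on day 1, 60.5% ± 1.67 on day 3 and 69.5% ± 0.70 on day 6 (n = 3 each). The KO-labelled libraries gave 14.8% ± 2.51, 32.9% ± 3.93, 34.2% ± 2.72 and 56.5% ± 1.72 (SD, n = 3 each). The KO day 1 libraries were at 33.8%, 28.6% and 36.3%, the lowest being replicate 2. Ezh1 thus held the larger share from day 1 in WT, but only at day 6 in the KO-labelled libraries. The KO minus WT difference in the log2 ratio of Ezh1 to Ezh2 was -0.51, -1.66, -1.56 and -0.81 on days 0, 1, 3 and 6. Averaged over days it was -1.14 (two-sided exact permutation test of genotype within days, p = 2.5e-05 over 80000 reassignments), and it was -1.10 without KO day 1 replicate 2. The day 6 minus day 0 difference, averaged over genotypes, was 3.07 (two-sided exact permutation test, p = 0.005, the smallest the design allows).

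**Figure D2:**
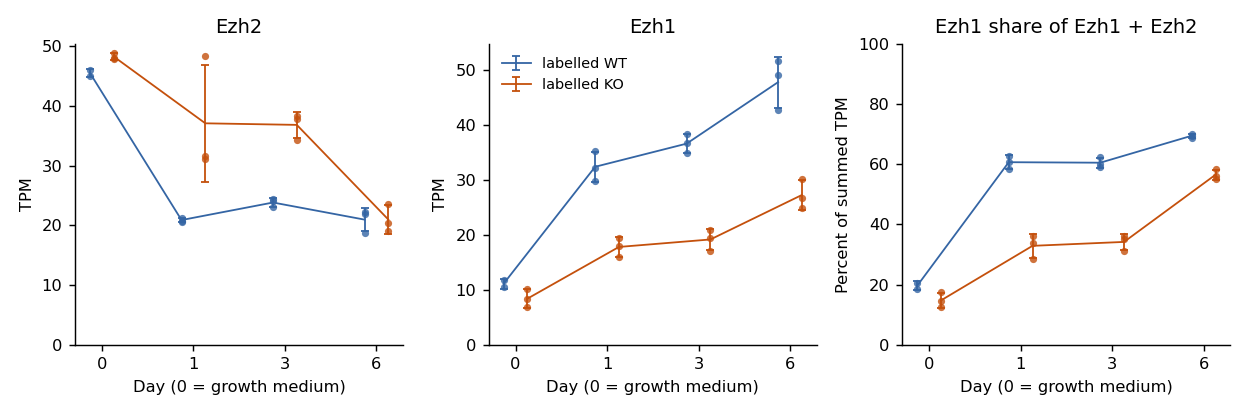
Ezh2 level (TPM), Ezh1 level (TPM) and Ezh1 share of their sum (%) against sampling day (drawn as evenly spaced categories) by genotype. Points are libraries, and lines with bars are group means ± SD; the share passes 60% in WT on day 1 and reaches 56.5% in the KO-labelled libraries only on day 6.

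Suz12 and Eed, core subunits shared by both forms of the complex, also fell between days 0 and 6. Suz12, the scaffold, was at 35.9 and 34.5 TPM in WT day 0 and at 21.9, 19.4 and 28.3 on day 6 (log2 change -0.80, adjusted p = 3.83e-05). The KO-labelled libraries went from 34.9, 33.3 and 32.9 TPM to 20.3, 18.0 and 17.8 (-0.97, adjusted p = 6.17e-07). It was already lower than on day 0 by day 1 in WT (-0.90, adjusted p = 1.13e-05). In the KO-labelled libraries the day 1 change was -0.37 (adjusted p = 0.0178), a call lost in 7 of 15 alternatives (leaving out KO day 0 replicate 1 or KO day 1 replicate 1 or 3 among them), and -0.65 (adjusted p = 1.48e-07) without replicate 2. Genotypes overlapped on days 0, 3 and 6, with 27.2, 26.2 and 24.03 TPM in WT and 23.4, 24.1 and 24.7 in the KO-labelled libraries on day 3. On day 1 the KO-labelled libraries had 22.7, 41.3 and 23.5 TPM against 20.8, 19.6 and 21.6 in WT, a difference of 0.52 (adjusted p = 0.00243). It was 0.25 without replicate 2 (adjusted p = 0.0102), the single high library, and it missed the threshold when only the 2 groups compared were fitted (0.51, adjusted p = 0.0872).

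Eed, the subunit that binds H3K27me3, fell from 22.3 and 22.2 TPM in WT day 0 to 16.5, 15.5 and 18.7 on day 6 (log2 change -0.58, adjusted p = 0.00132) and from 25.7, 27.6 and 24.2 to 17.5, 18.6 and 22.3 in the KO-labelled libraries (-0.52, adjusted p = 0.00115). On day 1 Eed was at 14.3, 13.9 and 15.9 TPM in WT and at 20.6, 28.0 and 16.8 in the KO-labelled libraries, and on day 3 at 17.7, 17.4 and 16.5 against 19.2, 23.6 and 23.2. It was higher in the latter by 0.60 on day 1 (SE 0.13, adjusted p = 0.00088; 0.45 without KO day 1 replicate 2) and by 0.51 on day 3 (SE 0.13, adjusted p = 0.00331), and groups did not overlap. The day 3 call just missed the threshold on log2(TPM + 1), with an adjusted p of 0.0502. The day 6 difference of 0.34 (adjusted p = 0.0413) was no longer called without KO day 6 replicate 2 or 3 or without any 1 of the WT day 6 libraries, with values from 0.20 to 0.37, nor with library size alone (0.27, adjusted p = 0.113) or on log2(TPM + 1) (0.19, adjusted p = 0.266). Eed shares 261 exonic bases with the non-coding E230029C05Rik on the opposite strand.

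Jarid2 rose from day 0 in WT and was lower in the KO-labelled libraries on days 1 and 3. In WT it was at 5.98 and 4.72 TPM on day 0 and 9.11, 9.96 and 8.41 on day 1. Its later levels were 7.96, 8.56 and 9.35 on day 3 and 8.54, 8.35 and 10.1 on day 6. Day 0 was thus the low point in WT. Levels in the KO-labelled libraries were 4.91, 4.09 and 3.40 TPM on day 0 and 5.91, 7.40 and 6.86 on day 1. They were then 5.27, 5.57 and 4.98 on day 3 and 8.98, 7.81 and 6.94 on day 6. The rise between days 0 and 6 was 0.58 (adjusted p = 0.000314) in WT and 0.83 (adjusted p = 5.52e-07) in the KO-labelled libraries, whose day 3 change of 0.25 was not called (adjusted p = 0.0615) but passed in 5 of 15 alternatives, such as without KO day 0 replicate 1 (0.39, adjusted p = 0.00815). Groups did not overlap on day 1 (log2 difference -0.42, SE 0.11, adjusted p = 0.00317; -0.44 without KO day 1 replicate 2) or on day 3 (-0.59, SE 0.11, adjusted p = 0.00014). On days 0 and 6 the groups overlapped, with differences of -0.31 (adjusted p = 0.104) and -0.05 (adjusted p = 0.752), the former called without KO day 0 replicate 1 (-0.43, adjusted p = 0.024) and the latter 0.01 without KO day 6 replicate 3.

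**Figure D3:**
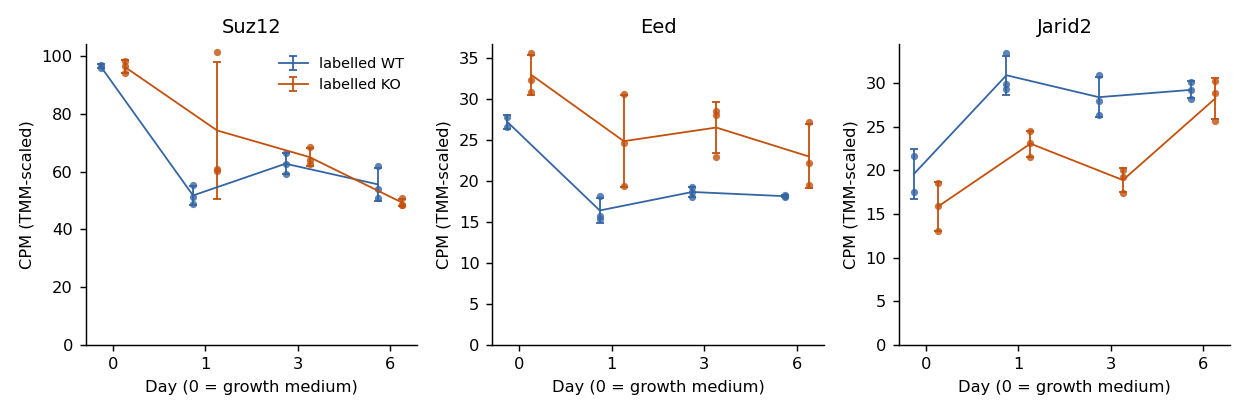
Suz12, Eed and Jarid2 levels (CPM) against sampling day (drawn as evenly spaced categories) by genotype, with points for libraries and lines with bars for group means ± SD. The single high KO day 1 point in the Suz12 and Eed panels is replicate 2, at 101.6 and 30.6 CPM.

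Other PRC2 genes were described from a list of 9 further accessory and core genes, of which 8 were tested. On day 1, 6 of the 8 were called higher and 2 lower in the KO-labelled libraries, with a median log2 difference of 0.39 against 0.03 over all tested genes, of which 22.9% were called higher and 19.2% lower (6 higher and 1 lower of the list, median 0.29, without KO day 1 replicate 2). On day 3 the counts were 4 and 2 (24% and 19.2% of all genes) and on day 6 they were 3 and 2 (22% and 20.8%). The Polycomb-like factor Phf19 fell from 30.7 ± 3.60 CPM (SD; n = 2 in WT day 0 and 3 elsewhere) to 8.28 ± 1.25 CPM in WT between days 0 and 6 and was higher at day 6 in the KO-labelled libraries, at 12.3 ± 1.24 CPM (log2 difference 0.57, adjusted p = 0.00161). Its paralog Phf1 rose in WT over the same days, from 26.1 ± 0.0099 to 55.9 ± 7.59 CPM (1.10, adjusted p = 2.02e-06). Epop, an accessory subunit, was lower there in the KO-labelled libraries (11.1 ± 1.05 against 18.4 ± 2.56 CPM, log2 difference -0.73, adjusted p = 0.00113).

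Both H3K27 demethylase genes were called higher at day 6 than at day 0 in each genotype. So were 32.6% of all genes in WT and 36.6% in the KO-labelled libraries. Kdm6b, the more raised, rose between day 0 and day 6 in WT (84.9 ± 1.87 to 178 ± 9.96 CPM, 1.07, adjusted p = 2e-07) and in the KO-labelled libraries (1.02, adjusted p = 3.92e-08). It was lower in the KO-labelled libraries on day 1 (-0.84, adjusted p = 3.42e-06; -0.64 without KO day 1 replicate 2) and day 3 (-0.73, adjusted p = 1.49e-05). Polycomb repressive complex 1 (PRC1), which binds the mark PRC2 makes, was mixed: of 20 tested genes, 4 were called higher and 9 lower between days 0 and 6 in WT (32.6% and 31.1% of all genes), with Cbx7 rising (1.15) and Phc2 falling (-0.86). Between genotypes at day 6, 3 of the 20 were called higher and 6 lower in the KO-labelled libraries (22% and 20.8% of all genes), among them Pcgf5 (22.4 ± 1.63 against 16.9 ± 0.78 CPM, 0.41) and Cbx6, a reader of H3K27me3 (170 ± 13 against 244 ± 15.8 CPM, -0.52). Of 12 other histone methyl- and acetyltransferase genes with known roles in muscle, only Smyd1, a muscle methyltransferase, was called there (78.1 ± 6.50 against 28.7 ± 1.87 CPM, 1.44, adjusted p = 3.1e-10). Of all genes, 42.9% were called in that comparison.

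Smarcd3 was the most abundant Smarcd gene in every library, and in the KO-labelled libraries its highest levels were on day 3. In WT it was at 64.2 and 66.4 TPM on day 0 and 82.5, 82.0 and 85.0 on day 1. Levels were then 74.9, 75.1 and 72.0 on day 3 and 60.5, 63.7 and 65.6 on day 6. WT levels were highest on day 1, though that change from day 0 (0.21, adjusted p = 0.0556) was called only in 7 of 14 alternatives. The KO-labelled libraries held 70.4, 71.6 and 72.2 TPM on day 0 and 92.8, 76.5 and 84.4 on day 1. They then held 100.8, 103.6 and 99.97 on day 3 and 69.6, 70.7 and 67.3 on day 6. It was higher in the KO-labelled libraries on day 3 by 0.61 (SE 0.08, adjusted p = 2.42e-06), with no overlap. Smarcd3 had risen by 0.42 since day 0 in those libraries (adjusted p = 0.000114) and differed by 0.01 in WT (adjusted p = 0.963), though the latter was 0.18 (adjusted p = 0.0293) on log2(TPM + 1). At day 6 the WT value was -0.23 (adjusted p = 0.0342), a call lost in 10 of 14 alternatives, among them DESeq2 (-0.20, adjusted p = 0.0519), log2(TPM + 1) (-0.05, adjusted p = 0.564) and leaving out WT day 0 replicate 2 (-0.17, adjusted p = 0.248) or WT day 6 replicate 1 or 3. The opposite-strand neighbour of Smarcd3, Chpf2, was lower in the KO-labelled libraries than in WT on day 3 (-0.34, adjusted p = 0.0131) and on day 6 (-0.38, adjusted p = 0.00517).

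The day 6 genotype difference of Smarcd3 was 0.26 (adjusted p = 0.0148). Its call was lost on the log2(TPM + 1) scale (0.13, adjusted p = 0.0876), without KO day 6 replicate 2 and without WT day 6 replicate 1. On day 1 the difference was 0.07 (adjusted p = 0.544) with all libraries and 0.19 (adjusted p = 0.0342) without KO day 1 replicate 2, or 0.14 (adjusted p = 0.105) when the filter on low counts was also applied again to the remaining libraries. The change from day 0 to day 3 was larger in the KO-labelled libraries than in WT by 0.42 (adjusted p = 0.0294), a call lost in 6 alternatives, including leaving out WT day 0 replicate 2 (0.35, adjusted p = 0.181). As a share of the 3 Smarcd genes' TPM, Smarcd3 made up 36.6% in WT day 0 and 47.3% on day 3, against 41.4% and 57.2% in the KO-labelled libraries. The paralogs Smarcd1 and Smarcd2 fell between days 0 and 6 in WT (-0.92 and -0.62) and in the KO-labelled libraries (-0.83 and -0.84). Of 23 tested BAF genes, 14 were called lower and 3 higher over the same interval in WT (31.1% and 32.6% of all genes); Smarca2, an ATPase subunit, rose by 1.39 and Actl6a fell by 1.17. At day 6, 9 of the 23 were called higher and 5 lower in the KO-labelled libraries (22% and 20.8% of all genes), with Brd7 at 155 ± 18.6 against 107 ± 3.51 CPM (0.53) and Ss18 at 51.8 ± 1.97 against 66.4 ± 1.35 CPM (-0.36).

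Kdm1a rose at day 1 and was not called against day 0 at day 6 in either genotype. It was at 79.1 and 74.6 TPM in WT day 0 and 132, 118 and 131 on day 1. It was then at 111, 108 and 101 on day 3 and 82.7, 81.1 and 98.8 on day 6. The WT peak was on day 1. The KO-labelled libraries had 74.5, 75.5 and 76.8 TPM on day 0 and 99.8, 128 and 112 on day 1. They then had 104, 92.8 and 90.2 on day 3 and 80.7, 75.2 and 69.9 on day 6. The rise at day 1 was 0.60 (SE 0.08, adjusted p = 1.38e-06) in WT and 0.43 (SE 0.07, adjusted p = 2.47e-05) in the KO-labelled libraries, or 0.38 without replicate 2. The genotype differences did not pass the threshold (0.04, -0.13, -0.01 and -0.09 on days 0, 1, 3 and 6, the sign of the day 0 and day 3 values changing with the setting). The day 1 value passed it when genes had to average at least 50 counts (-0.18, adjusted p = 0.0473) and without KO day 1 replicate 2 (-0.17, adjusted p = 0.0476; -0.21, adjusted p = 0.0142, with the filter on low counts applied again). Of the 10 listed CoREST genes, which encode partners of LSD1 and its paralog Kdm1b, 5 were called higher and 2 lower in WT at day 6 against day 0 (32.6% and 31.1% of all genes). In KO against WT at day 6, 3 were called higher and 2 lower (22% and 20.8%); the KO minus WT difference there was 0.67 for Gse1 and -0.34 for Rcor3.

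Hdac5 and Hdac7 made up nearly all of the class IIa transcripts. Hdac5 was at 61.5 and 51.4 TPM in WT day 0 and 131, 127 and 115 on day 1. Later it was at 103, 97.2 and 104 on day 3 and 104, 102 and 114 on day 6. Again day 1 held the highest WT libraries. In KO-labelled libraries it was at 68.9, 59.6 and 55.4 TPM on day 0 and 114, 92.0 and 127 on day 1. It was then at 101, 99.9 and 99.8 on day 3 and 122, 107 and 107 on day 6. It rose between days 0 and 6 by 0.72 (SE 0.11, adjusted p = 7.71e-06) in WT and by 0.74 (SE 0.10, adjusted p = 6.24e-07) in the KO-labelled libraries, and its genotype differences did not pass the threshold, except on day 6 when only the groups compared were fitted (0.19, adjusted p = 0.0469). Hdac7 was at 49.1 and 47.6 TPM in WT day 0 and rose to 74.0, 73.8 and 65.4 on day 1 (0.41, adjusted p = 0.0028). In the KO-labelled libraries it was at 53.8, 53.2 and 54.6 TPM and then at 67.6, 59.4 and 78.6, and on days 3 and 6 every library of either genotype lay between 54.1 and 65.02 TPM. The KO day 1 change was 0.17 (adjusted p = 0.154), but 0.34 (adjusted p = 4.97e-05) without replicate 2 and 0.33 (adjusted p = 0.00312) on log2(TPM + 1). On that scale the WT changes at days 3 and 6, 0.06 and 0.10 in the edgeR fit, were also called (0.25 and 0.32). Its genotype differences on days 0 and 3 (0.22 and 0.22) passed when only the groups compared were fitted (adjusted p = 0.0113 and 0.0146). Without KO day 1 replicate 2 its day 1 genotype difference went from -0.02 to 0.16 (adjusted p = 0.0419; 0.11, adjusted p = 0.16, with the filter applied again), and that of Hdac5 from -0.10 to 0.07 (adjusted p = 0.507).

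Hdac9, a MEF2 target gene whose product restrains MEF2 in turn, was scarce and showed the largest genotype difference among the members. In WT it was at 0.85 and 0.99 TPM on day 0 and 3.04, 3.10 and 2.73 on day 1. Subsequent levels were 3.73, 3.16 and 3.16 on day 3 and 2.73, 2.01 and 4.37 on day 6. Each later WT library exceeded those of day 0. The KO-labelled libraries had 0.12, 0.13 and 0.07 TPM on day 0 and 0.60, 0.70 and 1.12 on day 1. They then had 0.42, 0.32 and 0.22 on day 3 and 1.18, 1.30 and 1.17 on day 6. The groups did not overlap on any day, and the KO day 0 libraries held only 4 to 8 counts each. The KO minus WT log2 difference was -2.95 (SE 0.36, adjusted p = 1.95e-06) on day 0, -1.90 (SE 0.23, adjusted p = 5.96e-07) on day 1, -3.37 (SE 0.26, adjusted p = 3.42e-10) on day 3 and -1.25 (SE 0.21, adjusted p = 4.86e-05) on day 6, and it was -1.78 on day 1 without KO replicate 2. On log2(TPM + 1), which understates changes of low genes, these were -0.79, -1.14, -1.72 and -0.82, all called.

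Hdac9 rose between days 0 and 6 by 1.59 in WT and by 3.30 in the KO-labelled libraries, a difference of 1.71 (adjusted p = 0.00947). On log2(TPM + 1) the rises were 1.03 and 1.00. That difference was lost without WT day 0 replicate 2 (1.57, adjusted p = 0.0524) and was -0.03 on the log2(TPM + 1) scale. On that scale the difference at day 3, -0.42 in the edgeR fit (adjusted p = 0.703), was -0.93 (adjusted p = 0.00697), and the KO rise at day 3 went from 1.35 (adjusted p = 0.00607) to 0.25 (adjusted p = 0.152). Its paralog Hdac4 was lower in the KO-labelled libraries on day 0 (-0.36, adjusted p = 0.0384) and day 1 (-0.34, adjusted p = 0.012; -0.20, adjusted p = 0.115, without KO day 1 replicate 2) and higher on day 6 (0.30, adjusted p = 0.0205). Of the 8 other deacetylase genes listed, Hdac11 rose most in WT between days 0 and 6, from 2.57 ± 0.29 to 17.6 ± 2.26 CPM, and was higher still in KO day 6 at 30 ± 0.43 CPM (log2 difference 0.77, adjusted p = 0.000216). Hdac1 fell by 1.06 on the log2 scale in WT over the same days, when 3 of the 8 were called higher and 5 lower (32.6% and 31.1% of all genes). Between genotypes at day 6, 2 were called higher and 6 lower in the KO-labelled libraries (22% and 20.8%), Hdac8 the most (-0.72).

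**Figure D4:**
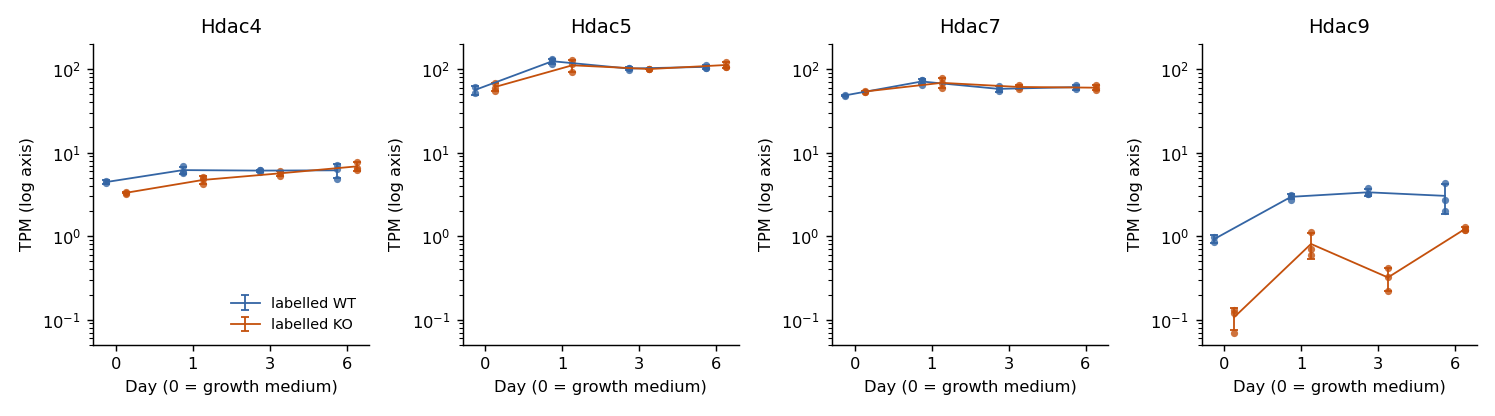
Levels of the 4 class IIa deacetylase genes (TPM, log axis) against sampling day (drawn as evenly spaced categories) by genotype, with points for libraries and lines with bars for group means ± SD. Hdac5 and Hdac7 lie between 47.6 and 131 TPM in all libraries, Hdac4 lies below 10, and Hdac9 is lower in the KO-labelled libraries on every day.

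Counted together, 2, 6, 6 and 4 of the 10 members were called between genotypes on days 0, 1, 3 and 6, where 17.5%, 42.2%, 43.2% and 42.9% of all tested genes were called. The members called higher numbered 0, 3, 3 and 2, beside 7.36%, 22.9%, 24% and 22% of all genes, and those called lower numbered 2, 3, 3 and 2, beside 10.1%, 19.2%, 19.2% and 20.8%. These counts lay within 2 members of the share of all genes, and those on days 1 and 3 ranged from 5 to 7 under the alternatives that kept all libraries. Without KO day 1 replicate 2, 9 members and 40.1% of all genes were called on day 1, or 7 members with the filter on low counts applied again. Their median log2 difference was 0.09, -0.06, 0.09 and 0.04, against 0.00, 0.03, 0.04 and 0.00 over all genes. The split of all calls depended on the scaling. The share of calls that were higher was 42.1%, 54.4%, 55.5% and 51.4% on days 0, 1, 3 and 6 with TMM and 31.3%, 43.3%, 34.3% and 34.9% on log2(TPM + 1), where the median of all genes moved by -0.125 on day 3; with library size alone it was 29.5% on day 0.

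Against day 0, 9, 8 and 8 members were called in WT on days 1, 3 and 6, beside 54.7%, 58.2% and 63.6% of all genes, and 8, 8 and 7 in the KO-labelled libraries, beside 52.3%, 57.6% and 70%. The KO day 1 count was 6 to 10 with 1 library left out, and 10 (53.7% of all genes) without replicate 2. At day 6 in WT, 4 rose and 4 fell (32.6% and 31.1% of all genes), and in the KO-labelled libraries 4 rose and 3 fell (36.6% and 33.5%). On log2(TPM + 1) the share of higher calls went from 49.6%, 50.1% and 51.2% to 60.6%, 63.8% and 63.5% in WT, and the median of all genes moved by 0.106 on day 3; on day 1 in the KO-labelled libraries the share went from 51.9% to 65.2%. These comparisons share the day 0 libraries of their genotype. The change from day 0 differed between genotypes for 1, 2 and 1 members on days 1, 3 and 6, beside 3.95%, 10.7% and 13% of all genes; on days 1 and 3 the share of those calls that were higher was 66.8% and 62.1% with TMM and 51.4% and 45.2% on log2(TPM + 1).

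**Figure D5:**
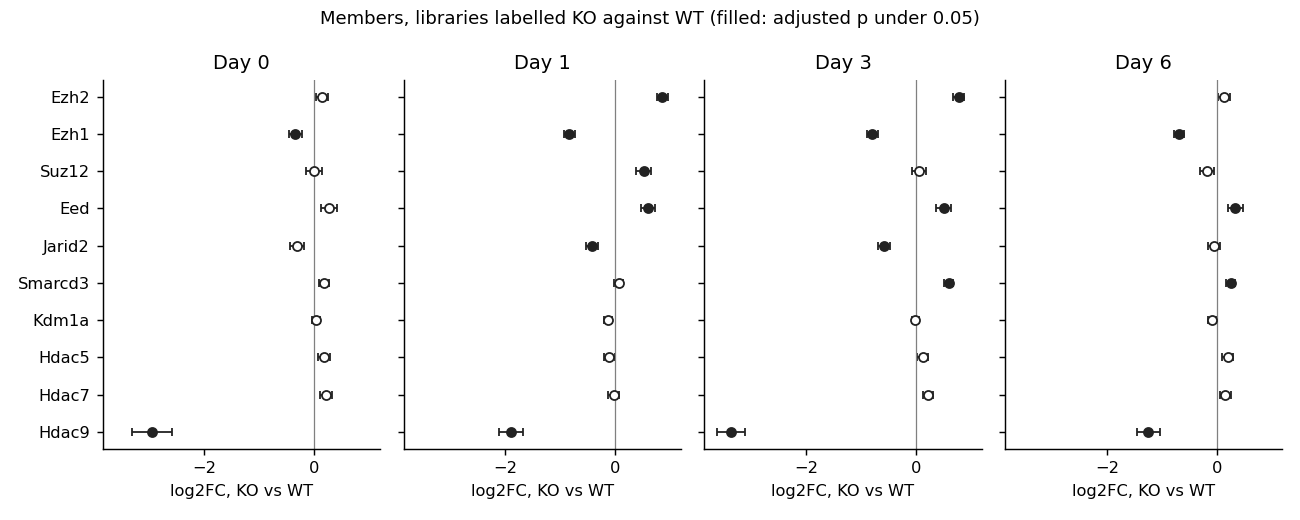
KO minus WT log2 difference ± SE of each member on each day, with filled points where the adjusted p was under 0.05. Ezh1 and Hdac9 lie below 0 with filled points on every day, Ezh2 has filled points on days 1 and 3, and Kdm1a, Hdac5 and Hdac7 have no filled point.

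The genes whose group means followed the members most closely were ranked by Pearson's r of log2 CPM over the 8 group means, among 10236 genes, as a description. Closest to Ezh2 was Dek (r = 0.99), at 170, 71.7, 79.0 and 63.1 CPM in WT and 190, 137, 145 and 65.1 CPM in the KO-labelled libraries on days 0, 1, 3 and 6, followed by Npat and Vkorc1l1 (both 0.99). Closest to Ezh1 was Col16a1 (r = 1.00), at 19.0, 47.9, 55.8 and 64.6 CPM in WT and 16.2, 28.6, 28.9 and 43.6 CPM in the KO-labelled libraries, followed by S100a1 and Smpd1. Closest to Smarcd3 was Maz (r = 0.97), with Med30 and Sfswap at 0.94.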

How the data were processed

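Poly(A) RNA from 23 C2C12 samples was sequenced. The submitters' processing notes name Bowtie2, RSEM and the mm10 build, with no versions or roles. The authors deposited expected counts per gene as whole numbers, and the authors' TPM values in a second table; strand use and annotation are not given in the sources used here. Groups came from the sample titles. Counts were tested with edgeR 4.0.16 (R 4.3.3), by its quasi-likelihood test on TMM-scaled counts over all 23 libraries. Genes passing filterByExpr (minimum count 10, total 15) were kept, and a gene was called at a Benjamini-Hochberg adjusted p under 0.05. SEs are the log2 difference over the square root of F. Alternatives used DESeq2 1.42.0, limma 3.58.1 on log2(TPM + 1) and log2(TPM + 0.1), other scalings and filters, only the groups compared, a replicate block, and each library left out. Analyses of lists, and of members with the filter applied again, without KO day 1 replicate 2 were added after seeing the data.

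Depth was 22197606 to 23684077 counts per library, and at these depths a gene with few counts, such as Hdac9, has the widest errors. Named genes were Runx1, the 10 members, the most raised and most lowered called gene (mean of at least 5 CPM in a group compared) of each listed chromatin complex at day 6, Hdac4, Smarcd1 and Smarcd2, and the 3 genes most like Ezh2, Ezh1 and Smarcd3; Chpf2, the day 1 and day 3 values of Kdm6b, marker genes and E230029C05Rik are named besides. The members and lists were chosen with earlier results of these data known. The edgeR script was tested on simulated counts.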

Additional observations from a re-analysis of the deposited data

Results flagged for a closer look

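For 5 results the change since growth medium differed between the genotypes by an interaction term of the fit over all libraries. Ezh2 fell less in the KO-labelled libraries, by 0.72 on the log2 scale at day 1 (0.55 without KO day 1 replicate 2) and 0.64 at day 3. Smarcd3 changed by 0.42 more there by day 3. Hdac9 rose by 1.71 more by day 6, from a KO day 0 level of 4 to 8 counts per library. Runx1 mRNA itself rose by 0.51 more by day 6 in the libraries labelled as its knockout, whose allele is not described. Each of these rests on the same 2 WT day 0 libraries, and no cause was tested.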

How the results depend on the processing

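The KO minus WT and day 6 minus day 0 differences in the Ezh1 to Ezh2 ratio kept their direction and call under every alternative run, from -1.17 to -1.09 and from 2.93 to 3.15. Of the member counts, the day 0 genotype count of 2 became 1 with RLE scaling, on log2(TPM + 1) and with the replicate block, 4 with only the groups compared, and 1 to 3 with 1 library left out. The day 6 count of 4 became 2 on both TPM scales and 2 to 4 with 1 library left out. The count of members whose change from day 0 differed between genotypes was 1 at day 1. It became 2 (no filter, DESeq2), 0 (only the groups compared) and up to 2 (1 library left out). At day 3 the count of 2 became 1 on log2(TPM + 0.1), 3 with the replicate block and up to 3 with 1 library left out. It was 1 to 3 over the alternatives that kept all libraries. At day 6 the count of 1 became 0 on log2(TPM + 1) and up to 2 with 1 library left out. No member's call on these differences held without WT day 0 replicate 2, which leaves 1 library in that group, assumed to vary like the others. The cause was not tested.

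Members whose sign turned were mostly near 0. Between genotypes, Suz12 gave 0.009 (RLE, DESeq2), 0.003 (replicate block) and -0.017 to 0.014 (1 library left out) on day 0, and -0.003 (library size only), -0.095 and -0.098 (log2(TPM + 1) and log2(TPM + 0.1)) on day 3. Kdm1a gave -0.024 (library size only) and -0.023 (both TPM scales) on day 0 and -0.065 to 0.027 with 1 library left out on day 3. Smarcd3 gave -0.042 to 0.189 with 1 library left out on day 1. On day 1 with 1 library left out Hdac5 gave -0.211 to 0.066 and Hdac7 -0.155 to 0.157, and 0.021 and 0.112 with the filter applied again without KO day 1 replicate 2. On day 3 Hdac5 was -0.018 on both TPM scales. On day 6 both TPM scales gave Ezh2 0 and Hdac7 -0.022, and Jarid2 was -0.1 to 0.015 with 1 library left out. Against day 0, Smarcd3 gave -0.025 (no filter) and -0.062 to 0.07 (1 library left out) in WT day 3 and -0.018 to 0.206 in KO day 1 (likewise). WT day 6 Kdm1a gave -0.017 (no filter), -0.001 (only the groups compared) and -0.02 to 0.053 (1 library left out). The differences in change from day 0 turned for Hdac9 on log2(TPM + 1) at days 1 (-0.346) and 6 (-0.029), and for Ezh2 at day 6 with only the groups compared (0) and 1 library left out (-0.084 to 0.056).

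The replicate block took the day 0 Ezh1 difference to -0.32 (adjusted p = 0.069) and called the Ezh1 difference in change at day 3 (-0.48, adjusted p = 0.0478); it changed no other member's call. Same-numbered libraries did not deviate together (mean correlation -0.094 to 0.049), and at most 2 libraries of a comparison correlated best with their own number, except between genotypes on day 0, where 4 of 5 did (correlations 0.044 to 0.053). Depth limits Hdac9 in particular.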
